A study of Mus musculus with 6 samples.

Results

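The 32 genes described here carry glucose through uptake, glycolysis, lactate formation and export and both branches of the pentose phosphate pathway, together with Hif1a, a transcription factor that acts on many of them. They were taken by name from the 17831 genes of the deposited count table, all 32 were present, and all passed the filter on low counts that left 13623 genes for testing. The question was whether the RNA of these genes differed between SIRPa KO and WT group 2 innate lymphoid cells (ILC2s), the lymphocytes without antigen receptors that release IL-5 and IL-13 in the lung. The 3 WT libraries came from CB57BL/6 mice (CB57BL/6 J in the study's methods) and the 3 SIRPa KO libraries from mice with the SIRPalphatm1Ynliu/J allele, a targeted allele present in every cell of the animal and not in ILC2s alone. Mice of both genotypes were 6 to 8 weeks old, matched for age and sex, and received rmIL-33 through the nose for 3 days. ILC2s were sorted on day 4 as CD45+ lineage- CD127+ ST2+ cells and kept in culture with added rmIL-2 and rmIL-7, so all 6 libraries are of activated cells. Each cDNA was made from 10 pg of RNA, and the number of animals behind a library is not given in the sources used here. The labels mark WT replicates 1 and 2 with code 37 and SIRPa KO replicates 2 and 3 with code 44, so libraries of a shared code may be technical repeats, and p values then measure in part a technical spread.

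Glycolysis splits glucose into pyruvate with a net yield of ATP and NADH. Activated lymphocytes use it fast and return much of the pyruvate as lactate, which leaves the cell through monocarboxylate transporters. The pentose phosphate pathway branches off at glucose 6-phosphate, where its oxidative arm makes NADPH and its non-oxidative arm makes ribose 5-phosphate for nucleotides. HIF-1α, encoded by Hif1a, is hydroxylated and degraded while oxygen is present, and when stable it pairs with ARNT, binds the core letters ACGTG and raises transcription of glucose transporter, glycolytic and lactate transport genes.

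The promoters of Slc16a1, Hif1a and Rpia are shown with these core letters, because the set holds both Hif1a and textbook targets of it, and because these had the largest fold changes among genes whose groups did not overlap. RefSeq (GRCm38.p6) gave promoter windows of 300 bases for 31 of the 32 genes. On either strand, ACGTG stood in a window of 17 of these 31 (54.8%), against 21.8% of all 27025 genes with a window. A gene counted when any of its windows held the letters. Genes differ in their number of windows (32851 windows over all genes), and the shares were not adjusted for it. CACGTG, the E-box that other factors also read and that holds ACGTG on both strands, stood in 6 of the 31 (19.4%) against 8.09% of all genes. Below are 250 bases before and 30 after the start on the strand of the gene, with ACGTG on either strand in capitals. Slc16a1 lies at chr3:104638414-104638693 on the plus strand, Hif1a at chr12:73907617-73907896 on the plus strand and Rpia at chr6:70792146-70792425 on the minus strand.
Slc16a1: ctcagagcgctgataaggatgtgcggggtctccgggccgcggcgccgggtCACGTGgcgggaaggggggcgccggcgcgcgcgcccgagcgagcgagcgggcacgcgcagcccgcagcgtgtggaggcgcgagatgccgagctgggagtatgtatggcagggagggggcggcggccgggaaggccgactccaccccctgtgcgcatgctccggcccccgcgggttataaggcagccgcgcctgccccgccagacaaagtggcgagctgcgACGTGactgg
Hif1a: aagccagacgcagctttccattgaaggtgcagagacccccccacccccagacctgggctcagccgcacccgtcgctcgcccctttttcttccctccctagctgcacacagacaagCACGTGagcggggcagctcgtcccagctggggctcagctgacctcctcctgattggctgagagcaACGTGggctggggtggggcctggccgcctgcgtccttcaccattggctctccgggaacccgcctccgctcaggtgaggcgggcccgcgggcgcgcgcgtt
Rpia: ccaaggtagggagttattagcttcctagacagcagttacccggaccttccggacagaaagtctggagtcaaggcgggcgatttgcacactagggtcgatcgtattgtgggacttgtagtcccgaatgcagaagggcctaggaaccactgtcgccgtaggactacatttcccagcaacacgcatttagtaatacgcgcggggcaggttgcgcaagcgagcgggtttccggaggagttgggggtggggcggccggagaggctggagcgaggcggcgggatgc
Slc16a1 and Hif1a each held 3 matches, 2 of them inside a CACGTG, and Rpia held none. Matching letters are a description of sequence and do not show binding.

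Of the 32 genes, 1 rose and 3 fell in SIRPa KO ILC2s at an adjusted p under 0.05. Slc16a1, the lactate and pyruvate transporter MCT1, rose 2.34-fold, while the glycolytic enzymes Aldoa and Eno1 fell 1.33-fold and 1.37-fold and Rpia, which makes ribose 5-phosphate, fell 2.63-fold. The 4 calls are 12.5% of the set, and 11.7% of all genes tested were called, so the share of calls was close to the background. DESeq2 called 9 of the 32 (28.1%) and 26.9% of all genes to which it gave an adjusted p, adding Slc2a1, Hk2, Hif1a, G6pdx and Taldo1. Split by direction, 5.94% of all genes tested were called higher and 5.81% lower. An unadjusted p under 0.05 was reached by 16 of the 32 (50%) against 32% of all genes, 8 in each direction. Libraries of WT and SIRPa KO did not overlap for 18 of the 32 (56.2%), 9 in each direction, against 42.8% of all genes. The median log2 fold change of the set was -0.036, beside -0.025 over all genes tested, with 15 genes above 0 and 17 below. By these counts the set had no common direction, and values differed by step.

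**Figure D1:**
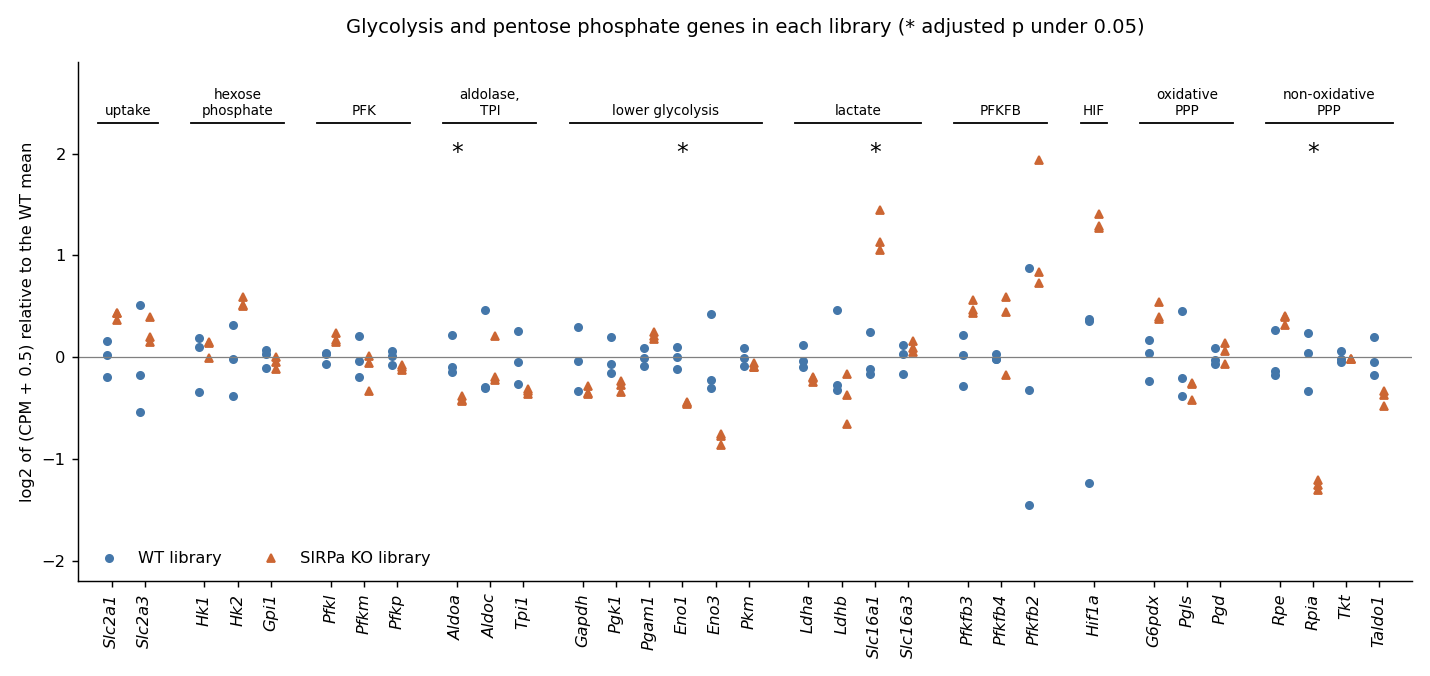
Each point is 1 library, 3 WT (circles) and 3 SIRPa KO (triangles), plotted as log2 of (CPM + 0.5) relative to the WT mean of that gene, with genes grouped by step and stars for an adjusted p under 0.05. Slc16a1, Hif1a and Rpia stand furthest from their WT libraries with no overlap, Pfkfb2 libraries overlap, and the WT libraries are more spread than the SIRPa KO libraries for most genes.

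Levels are given as CPM, the read count of a gene scaled to the library size after TMM normalization, with the libraries in the order of replicates 1, 2 and 3. Errors of group means are SDs (n = 3), errors of log2 fold changes are SEs, and adjusted p values are from edgeR's quasi-likelihood test over all genes tested. The libraries held 13980499 to 19051507 reads. WT replicates 1 and 2, which share a code, had a robust SD of log2 ratios of 0.207. WT replicate 3, of code 38, differed more from both (0.488 and 0.50) and was the only WT library of another code. In SIRPa KO the pair of a shared code, replicates 2 and 3, was at 0.124. The SIRPa KO pairs of different codes were at 0.119 and 0.133, so a shared code did not go with closer libraries there. The labels list 3 replicates a group, whereas the series' own design text speaks of duplicates. The biological coefficient of variation was 38.1% in WT, 27.9% without WT replicate 3 and 15.2% in SIRPa KO. Leaving out any 1 SIRPa KO library left 16 or 17 calls among all genes and none in this set, and summing libraries of a shared code, which left 2 against 2, gave 10 calls among all genes and none here. Sirpa itself, the targeted gene, was at 8.57, 6.83 and 4.83 CPM in WT and 3.07, 4.46 and 1.74 CPM in SIRPa KO, without overlap (log2 fold change -1.12 ± 0.42, adjusted p = 0.115). The part of Sirpa that the allele removes is not given in the sources used here.

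Fold changes in this set followed transcript length. Across the 32 genes, log2 fold change and length had a Spearman correlation of 0.80 and a Pearson correlation of 0.70, where the points are genes of the same 6 libraries. Over all 9128 genes whose average log2 CPM was 3 or more, the Spearman value was 0.55. The median log2 fold change of these went from -0.57 in the shortest decile of transcripts to 0.49 in the longest. Of the 11 genes of the set with a transcript under 2000 bases, Pgam1 alone had a log2 fold change above 0, and their median of -0.34 was beside -0.36 for all genes of that length. Of the 13 with 3000 bases and more, Pfkp and Tkt alone were below 0, and their median of 0.36 was beside 0.31 for all such genes. Enzymes of the middle and lower pathway have short transcripts and transporters, hexokinases, PFKFB enzymes and Hif1a long ones, so step and length cannot be told apart by direction alone. Genes that passed the threshold, and most of the others described, are therefore also given after a correction that took a smooth trend in length and GC content out of each library. With that correction, 6 of the 32 genes (18.8%) and 8.57% of all genes passed the threshold. Corrected log2 fold changes of the 32 genes had a smaller correlation with length (Spearman 0.30, Pearson 0.32). Whether part of the trend was left in the set was not tested.

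**Figure D2:**
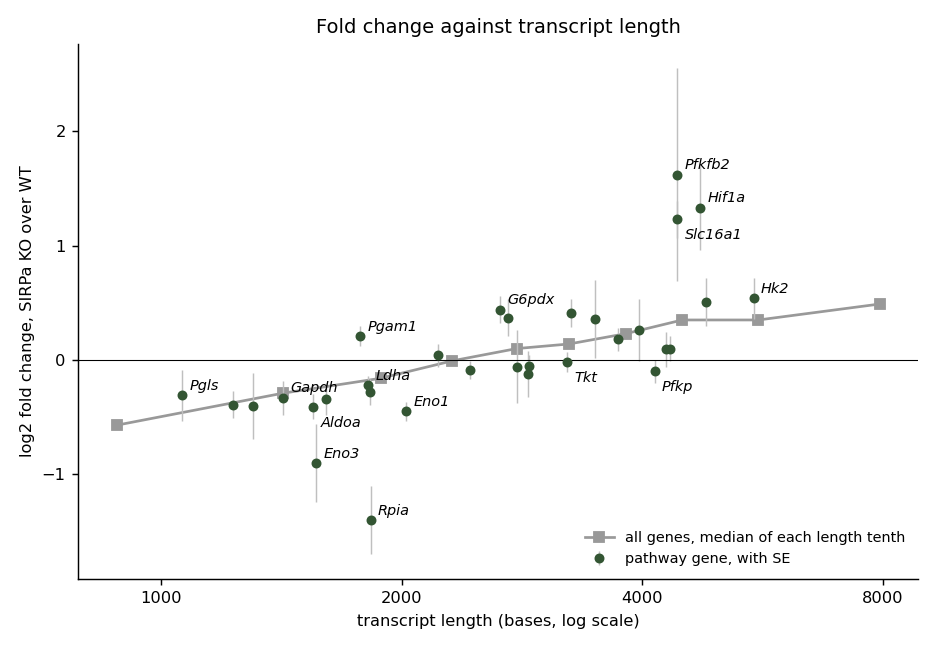
Log2 fold change of SIRPa KO over WT (vertical axis, bars are SE) against transcript length in bases (horizontal, log scale) for the 32 genes, with the median of each length decile of all genes as grey squares. The grey line is higher for longer transcripts, and Slc16a1, Hif1a, Pfkfb2 and Rpia stand furthest from it.

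Glucose enters lymphocytes through Slc2a1 (GLUT1) and Slc2a3 (GLUT3). Slc2a1 was at 112, 143 and 130 CPM in WT and at 173, 174 and 165 CPM in SIRPa KO. All SIRPa KO libraries were above all WT libraries, with a log2 fold change of 0.41 ± 0.12 that missed the threshold (adjusted p = 0.0668) and was 0.32 after the correction (adjusted p = 0.163). For Slc2a3 the log2 fold change was 0.26 ± 0.27, and 0.0018 after the correction, and its libraries overlapped. Per kilobase of transcript, Slc2a1 made up 84.1% ± 6.68 of both transporters in WT and 85.6% ± 1.12 in SIRPa KO. This share overlapped between the groups (exact permutation test, two-sided p = 1).

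Hexokinases trap glucose as glucose 6-phosphate, which Gpi1 turns into fructose 6-phosphate. Hk2, the inducible hexokinase, was at 117, 93.0 and 71.7 CPM in WT and at 133, 142 and 134 CPM in SIRPa KO. Its libraries did not overlap, with a log2 fold change of 0.54 ± 0.18 (adjusted p = 0.0879) and 0.24 after the correction (adjusted p = 0.242). Hk1 was the more abundant hexokinase per kilobase, with a log2 fold change of 0.093 ± 0.15. The share of Hk1 in both hexokinases was 82.2%, 84.4% and 83.8% in WT and 79.6%, 78.6% and 77.8% in SIRPa KO. That difference of -4.80 points had no overlap between the groups. An exact two-sided permutation test gave p = 0.1, the smallest that 3 against 3 allows (0.2 adjusted over the 8 isozyme families). If libraries of a shared code count as 1, which leaves 2 against 2, the smallest p of this test would be 0.333. After the length and GC correction the share of Hk1 was 82.4% and 79.8%, a smaller difference, again without overlap. Gpi1, the most abundant gene of this step per kilobase, was at 505, 570 and 557 CPM in WT and 543, 526 and 501 CPM in SIRPa KO, and these overlapped (log2 fold change -0.055 ± 0.095).

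Phosphofructokinase commits fructose 6-phosphate to glycolysis, and its subunits Pfkl, Pfkm and Pfkp form mixed tetramers. Pfkl was at 258, 242 and 260 CPM in WT and at 298, 284 and 281 CPM in SIRPa KO, a log2 fold change of 0.18 ± 0.10 (adjusted p = 0.219). Pfkp was at 300, 291 and 273 CPM in WT and at 273, 264 and 269 CPM in SIRPa KO. Its log2 fold change of -0.10 ± 0.10 did not pass (adjusted p = 0.497), and after the length and GC correction it was -0.42 ± 0.10 and passed (adjusted p = 0.0453). Per kilobase, Pfkl and Pfkp were present in near equal shares. Pfkp held 49.0%, 49.5% and 45.8% of the family in WT and 43.1%, 43.3% and 44.5% in SIRPa KO, again without overlap (exact two-sided permutation p = 0.1, 0.2 adjusted), and 50.5% and 41.3% after the correction. Pfkm was scarce, at 4.96% ± 0.779 and 4.42% ± 0.519 of the family, and shares exons on the opposite strand with Senp1, which had 114 CPM against its 19.8. Pfkp shares exons in the same way with Pitrm1, which had 341 CPM against its 278. Whether counting used strand is not stated, so the values of Pfkm and Pfkp, and the shares of this family, are uncertain.

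**Figure D3:**
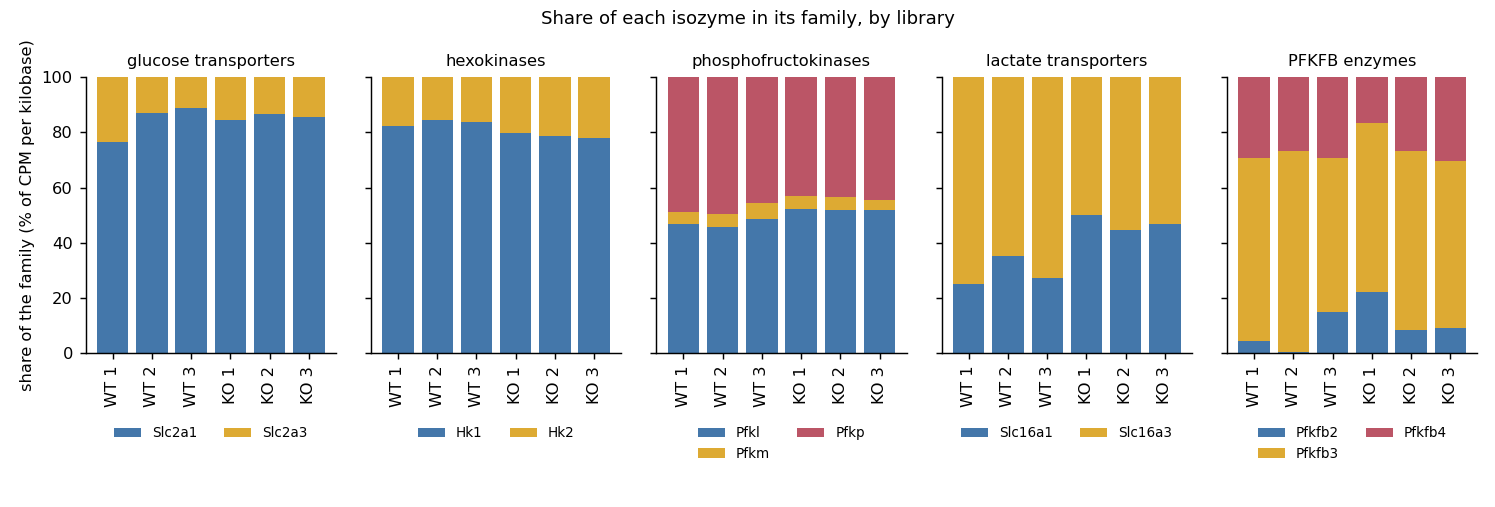
Stacked bars give the share of each isozyme in its family, as a percentage of CPM per kilobase, in each of the 3 WT and 3 SIRPa KO libraries. Slc16a1 holds 25.2% to 35.3% of the lactate transporter signal in WT and 44.5% to 50.1% in SIRPa KO, and the Hk2 and Pfkl shares are also higher in every SIRPa KO library, while the glucose transporter and PFKFB shares overlap.

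Aldolase cuts the 6-carbon sugar into triose phosphates that Tpi1 interconverts. Aldoa, at chr7:126795234-126800751 (GRCm38, minus strand), was at 2547, 2633 and 3267 CPM in WT and at 2160, 2092 and 2102 CPM in SIRPa KO. It fell by 0.41 ± 0.11 in log2 units (adjusted p = 0.048), with every SIRPa KO library below every WT library. After the length and GC correction the value was -0.0079 ± 0.056 (adjusted p = 0.946), so this call ended there. Without 1 of the SIRPa KO libraries the adjusted p was 0.162 to 0.185, and without 1 of the WT libraries 0.00564 to 0.0495. Tpi1 had a log2 fold change of -0.34 ± 0.14 without overlap (adjusted p = 0.135), and -0.052 after the correction. Aldoc, the brain-type aldolase, was at 5.64 to 9.95 CPM over the 6 libraries and made up under 1% of both aldolases per kilobase in each.

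The lower part of the pathway turns triose phosphates into pyruvate and yields ATP. Eno1, the enolase that makes phosphoenolpyruvate, fell from 4517, 4149 and 4838 CPM in WT to 3307, 3297 and 3275 CPM in SIRPa KO. All SIRPa KO libraries were below all WT libraries, with a log2 fold change of -0.45 ± 0.081 (adjusted p = 0.0188). After the correction Eno1 was at -0.19 ± 0.044 and still passed (adjusted p = 0.0371). Without 1 SIRPa KO library its adjusted p was 0.102 to 0.121. The gene lies at chr4:150236721-150248879 (GRCm38, plus strand) and has 3 near-identical copies in the table, Eno1b among them, whose levels came to 2.88% of its own. Eno1b was at 48.6, 43.1 and 52.0 CPM in WT and 39.6, 37.6 and 34.8 CPM in SIRPa KO (log2 fold change -0.36 ± 0.15, adjusted p = 0.138), and reads of these copies could be split between them.

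Gapdh, which oxidises glyceraldehyde 3-phosphate, was the most abundant gene of the set per kilobase. It was at 2820, 3459 and 4347 CPM in WT and 2901, 2763 and 2779 CPM in SIRPa KO, which overlapped (log2 fold change -0.33 ± 0.15, adjusted p = 0.163), and the value turned to 0.11 after the correction. Its 65 near-identical copies in the table summed to 10.1% of its level. Eno3, the muscle enolase, was at 4.77, 4.48 and 7.75 CPM in WT and 2.88, 3.15 and 3.10 CPM in SIRPa KO, a log2 fold change of -0.90 ± 0.34 that missed the threshold (adjusted p = 0.121), and -0.55 after the correction. Eno1 held over 99% of both enolases per kilobase in every library. Pgk1 had a log2 fold change of -0.28 ± 0.11 (adjusted p = 0.129) and Pkm, pyruvate kinase, of -0.085 ± 0.077 (adjusted p = 0.473). Pgam1, phosphoglycerate mutase, was the exception in direction, at 603 to 680 CPM in WT and 725 to 760 CPM in SIRPa KO. Its log2 fold change of 0.21 ± 0.09 did not pass (adjusted p = 0.15) and was 0.41 ± 0.085 after the correction, where it passed (adjusted p = 0.0304).

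The 15 genes from Gpi1 to Ldhb together took 2.04%, 2.09% and 2.32% of all reads in WT and 1.80%, 1.79% and 1.79% in SIRPa KO. Eno1, Pkm, Gapdh, Ldha and Aldoa alone accounted for 1.81% ± 0.123 of reads in WT and 1.48% ± 0.00417 in SIRPa KO. These sums rest on the shorter transcripts of the set, and as bulk values they do not tell fewer cells with a transcript from less transcript per cell.

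Lactate dehydrogenase reduces pyruvate to lactate, and the monocarboxylate transporters MCT1 (Slc16a1) and MCT4 (Slc16a3) carry lactate across the membrane. Slc16a1, at chr3:104638668-104658462 (GRCm38, plus strand), was at 68.8, 91.4 and 71.2 CPM in WT and at 211, 161 and 170 CPM in SIRPa KO. The lowest SIRPa KO library was well above the highest WT library, and the gene rose by 1.23 ± 0.16 in log2 units (adjusted p = 0.0112). It passed after the length and GC correction as well, at 0.75 ± 0.16 (adjusted p = 0.0329). Without 1 SIRPa KO library its adjusted p was 0.0688 to 0.0846, with log2 fold changes of 1.11 to 1.37 over all 6 libraries left out in turn. Slc16a3 was at 164 to 200 CPM in WT and 191 to 206 CPM in SIRPa KO, which overlapped (log2 fold change 0.10 ± 0.11, adjusted p = 0.557).

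The transcripts of these transporters are of similar length, 4426 and 4335 bases, with GC contents of 42.9% and 56.6%. Slc16a1 made up 25.2%, 35.3% and 27.1% of both in WT and 50.1%, 44.5% and 46.7% in SIRPa KO. The share was 29.2% ± 5.39 against 47.1% ± 2.83, and 31.8% against 43.9% after the correction, with no overlap in either (exact two-sided permutation p = 0.1, 0.2 adjusted over the families). Ldha was at 3156, 3280 and 3658 CPM in WT and 2924, 2831 and 2941 CPM in SIRPa KO. Its libraries did not overlap, with a log2 fold change of -0.22 ± 0.083 (adjusted p = 0.122) and -0.066 after the correction. Ldhb was at 7.63 to 17.1 CPM over the 6 libraries, under 1% of both dehydrogenases per kilobase.

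PFKFB enzymes set the level of fructose 2,6-bisphosphate, the main activator of phosphofructokinase. Pfkfb3, the most abundant per kilobase, was at 12.1, 13.9 and 9.67 CPM in WT and 16.6, 17.8 and 16.2 CPM in SIRPa KO. No library overlapped, with a log2 fold change of 0.51 ± 0.21 (adjusted p = 0.141) and 0.19 after the correction. Pfkfb2 had the largest log2 fold change of the step, 1.62 ± 0.93 (adjusted p = 0.266), from 13, 1 and 36 reads in WT and 86, 40 and 37 reads in SIRPa KO. After the correction it was 1.01. The WT libraries of Pfkfb2 spread from 1 to 36 reads and overlapped with SIRPa KO, and the gene shares exons on the opposite strand with Yod1, which had 10.4 CPM against its 2.18. Pfkfb4 was at 3.70 to 3.85 CPM in WT and 3.26 to 5.89 CPM in SIRPa KO.

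Hif1a had 665, 653 and 216 CPM in WT and 1356, 1253 and 1237 CPM in SIRPa KO. Every SIRPa KO library was above every WT library, and WT replicate 3 was far below the other WT libraries, which share a code. The log2 fold change of 1.33 ± 0.37 just missed the threshold (adjusted p = 0.0545). Without WT replicate 3 it was 0.97, with an adjusted p of 0.00051 that rests on WT libraries of 1 code, and DESeq2 gave an adjusted p of 0.00195, so the call depends on this library and on the tool. After the length and GC correction the value was 0.90 ± 0.26 (adjusted p = 0.0734). The gene lies at chr12:73901375-73947530 (GRCm38, plus strand), and its transcript of 4724 bases with 41.3% GC is among the longest and most AT-rich of the set.

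Of 13 partners and regulators of HIF-1α that were tested, 4 fell and none rose at an adjusted p under 0.05 (30.8%, beside 11.7% of all genes). After the correction 2 of 13 passed (15.4%, beside 8.57%). In direction, 8 of the 13 were above 0 and 5 below, with a median log2 fold change of 0.40. With the correction 7 were above 0 and 6 below, with a median of 0.044. Egln1, the main prolyl hydroxylase that marks HIF-1α for degradation, fell from 33.4, 13.2 and 26.2 CPM in WT to 8.63, 6.24 and 9.68 CPM in SIRPa KO. Its log2 fold change was -1.57 ± 0.36 (adjusted p = 0.0332) and -1.63 after the correction (adjusted p = 0.0337), and without 1 SIRPa KO library its adjusted p was 0.109 to 0.151. Egln2, a second hydroxylase, fell by 0.56 ± 0.15 in log2 units (adjusted p = 0.0497) and was at -0.17 after the correction (adjusted p = 0.4). Elob, a subunit of the VHL ubiquitin ligase, fell by 1.01 ± 0.20 (adjusted p = 0.0257) and has a short transcript of 537 bases; after the correction it was at -0.19 (adjusted p = 0.147). Rbx1, a subunit of the same ligase, fell by 0.76 (adjusted p = 0.0335) and by 0.69 after the correction (adjusted p = 0.0306). Cul2 and Eloc, other subunits of this ligase, did not pass and did not overlap between the groups. Cul2 was at 0.71 ± 0.22 (adjusted p = 0.0723) and Eloc at -0.32 ± 0.15 (adjusted p = 0.185). After the correction they were at 0.30 and -0.49. Vhl itself overlapped between the groups (log2 fold change 0.012 ± 0.16).

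Egln3, a further hydroxylase of the Egln family, was at 4.77, 5.69 and 8.08 CPM in WT and 10.2, 8.50 and 12.0 CPM in SIRPa KO. Its log2 fold change was 0.72 ± 0.29 (adjusted p = 0.132), and 0.64 after the correction. Arnt, the partner of HIF-1α, had a log2 fold change of 0.60 ± 0.19 (adjusted p = 0.0804), and Epas1, which encodes HIF-2α, of 0.52 ± 0.15 (adjusted p = 0.0609). Neither overlapped between the groups, and after the correction they were at 0.25 and 0.22. Among 22 HIF targets outside the set that were tested, 3 fell and none rose at an adjusted p under 0.05 (13.6%, beside 11.7% of all genes). In direction, 8 were above 0 and 14 below. DESeq2 called 9 of the 22 (40.9%, beside 26.9% of all genes to which it gave an adjusted p), some higher and some lower. After the correction 5 of the 22 passed (22.7%, beside 8.57%), 4 lower and 1 higher. The higher gene was Mif, named after its value was seen, at 0.68 (adjusted p = 0.00882). Without the correction Mif was at -0.20 (adjusted p = 0.501) with overlapping libraries, and its transcript has 544 bases. Of the 17 set genes with ACGTG in a promoter window, 10 had a log2 fold change above 0 and 7 below. Of the 14 without, 4 were above and 10 below. After the correction, 10 of the 17 and 6 of the 14 were above 0. This split was not tested.

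**Figure D4:**
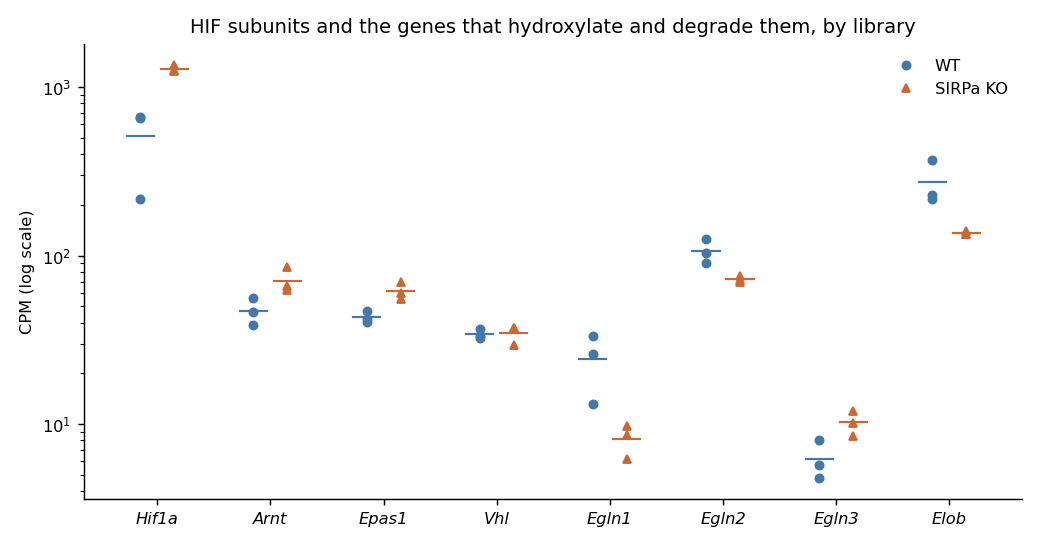
CPM on a log scale for Hif1a, its partners and the genes of its hydroxylation and degradation, with 1 point per library (circles WT, triangles SIRPa KO) and lines at the group means (n = 3). Hif1a, Arnt, Epas1 and Egln3 are higher and Egln1, Egln2 and Elob are lower in all SIRPa KO libraries, and Vhl overlaps.

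The oxidative arm of the pentose phosphate pathway starts at G6pdx, the enzyme that makes its first NADPH. G6pdx was at 693, 755 and 571 CPM in WT and at 977, 875 and 885 CPM in SIRPa KO. Its libraries did not overlap, with a log2 fold change of 0.44 ± 0.12 that just missed the threshold (adjusted p = 0.0549). After the correction it was 0.41 ± 0.10 and passed (adjusted p = 0.042), so G6pdx was hardly moved by it. Pgd, which makes the second NADPH, was at 264 to 304 CPM in all 6 libraries (log2 fold change 0.042 ± 0.10). Pgls, the lactonase between them, had a log2 fold change of -0.31 ± 0.22 (adjusted p = 0.357) and of 0.55 ± 0.18 after the correction (adjusted p = 0.108). With 1062 bases and 65.9% GC, Pgls has the shortest and most GC-rich transcript of the set.

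In the non-oxidative arm, Rpia and Rpe turn ribulose 5-phosphate into ribose 5-phosphate and xylulose 5-phosphate, and Tkt and Taldo1 link these back to glycolysis. Rpia, at chr6:70765720-70792232 (GRCm38, minus strand), was at 7.53, 5.69 and 8.74 CPM in WT and 2.88, 2.78 and 2.67 CPM in SIRPa KO. This came from 80 to 132 reads in a WT library and 43 to 53 in a SIRPa KO library, with no overlap. Rpia fell by 1.40 ± 0.30 in log2 units (adjusted p = 0.0297), and by 1.23 ± 0.27 after the correction (adjusted p = 0.0348). Without 1 SIRPa KO library the adjusted p was 0.121 to 0.136, and without WT replicate 1 it was 0.0548. Rpe was at 46.6 to 63.6 CPM in WT and 65.6 to 69.7 CPM in SIRPa KO (log2 fold change 0.37 ± 0.16, adjusted p = 0.152), and at 0.06 after the correction. Taldo1, the most abundant of the arm per kilobase, was at 272, 248 and 321 CPM in WT and 217, 222 and 201 CPM in SIRPa KO, a log2 fold change of -0.39 ± 0.12 (adjusted p = 0.0765) that was 0.026 after the correction. Tkt was at 439 to 473 CPM in WT and 448 to 449 CPM in SIRPa KO (log2 fold change -0.017 ± 0.088), within the spread of WT.

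**Figure D5:**
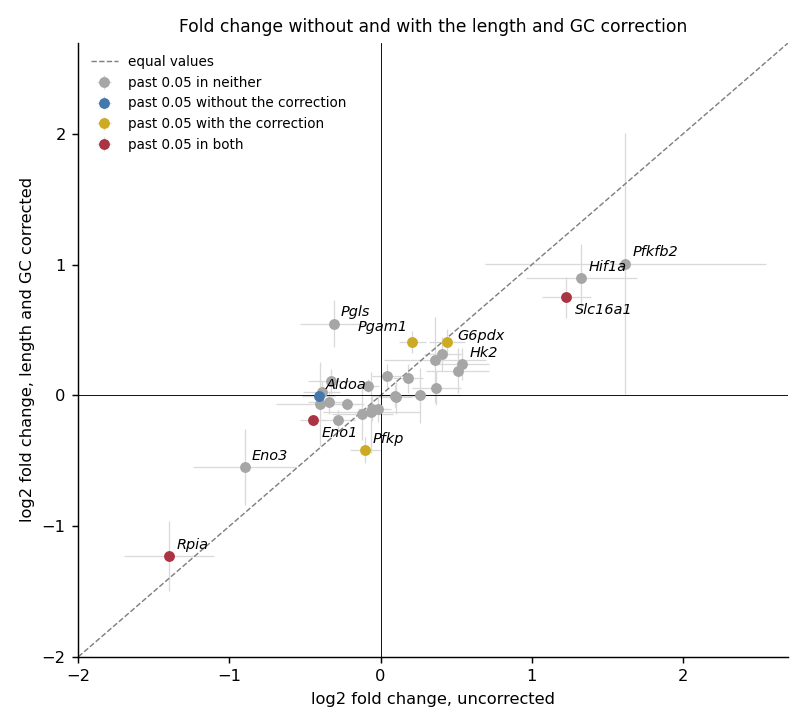
Log2 fold change of each of the 32 genes without the length and GC correction (horizontal) and with it (vertical), with SE bars and colours for the fit in which the adjusted p was under 0.05. Slc16a1, Eno1 and Rpia pass in both, Aldoa without the correction alone, and Pgam1, G6pdx and Pfkp with it alone, and Pgls crosses from below 0 to above it.

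Genes next to these pathways were read from the same fit. Of 82 tested, 3 rose and 10 fell at an adjusted p under 0.05 (15.9%, beside 11.7% of all genes). Prps1, which turns ribose 5-phosphate into the nucleotide precursor PRPP, rose from 92.3, 74.9 and 96.7 CPM to 138, 129 and 130 CPM, by 0.59 ± 0.13 on the log2 scale (adjusted p = 0.0326), and by 0.52 after the correction (adjusted p = 0.0405). Prps1l3, a gene of the same family with which its reads could be shared, rose by 0.73 ± 0.15 (adjusted p = 0.0257), and by 0.78 after the correction (adjusted p = 0.0202). Ptbp1, a splicing factor that favours the M2 form of pyruvate kinase, rose by 0.49 ± 0.13 (adjusted p = 0.0463) and was at 0.42 after the correction, where it did not pass (adjusted p = 0.055). Apart from Egln1 and Elob, the largest falls were those of Tfeb, Slc2a8 and Higd1a. Tfeb, a lysosomal and metabolic transcription factor, was at -1.16 ± 0.30 (adjusted p = 0.0471) and at -0.80 after the correction, where it did not pass (adjusted p = 0.137). The transporter Slc2a8 was at -0.81 ± 0.17 (adjusted p = 0.0284) and likewise did not pass after it, at -0.46 (adjusted p = 0.159). Higd1a, a HIF target, was at -0.81 ± 0.18 (adjusted p = 0.0312) and passed after it as well, at -0.78 (adjusted p = 0.0325). Ddit4, Bhlhe40 and Pgp make up the rest with Egln2 and Rbx1. After the correction, 6 of the 13 still passed and 7 did not, Ddit4 (adjusted p = 0.177) and Pgp (adjusted p = 0.0809) among the latter. None of these 13 kept an adjusted p under 0.05 when any 1 SIRPa KO library was left out.

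All 17 ILC2 markers were detected, with a summed level of 15630 to 16794 CPM in WT and 21426 to 21961 CPM in SIRPa KO, led by Il5. Of these, Il5, Il2ra and Ptprc rose and Id2 and Thy1 fell at an adjusted p under 0.05, with 9 of the 17 above 0 and 8 below. Lists of other cells summed to less than the ILC2 list, and several differed between the groups. Some of their markers were above some ILC2 markers. In WT, Ighm at 105 to 282 CPM was above Il7r at 53.2 to 80.5 CPM and below Gata3 at 846 to 1078 CPM. The 6 B cell markers present summed to 212 to 477 CPM in WT and 22.8 to 84.5 CPM in SIRPa KO. The 9 T cell markers summed to 206 to 274 CPM in WT and 124 to 132 CPM in SIRPa KO, and Cd3g, Trbc1 and Trbc2 fell, with Cd3g at 16.4 to 21.2 and 3.15 to 3.64 CPM and Cd3e at 0.397 to 2.42 CPM over all libraries. The 7 NK cell markers summed to 15.6 to 27.3 and 1.85 to 3.85 CPM. The 7 mast cell or basophil markers summed to 18.0 to 57.0 CPM in WT and 72.2 to 143 CPM in SIRPa KO. Without Tpsab1, which was at 2.47 to 9.53 and 70.5 to 116 CPM, that list summed to 15.5 to 51.8 and 1.73 to 27.4 CPM. The 15 macrophage or dendritic cell markers summed to 159 to 343 and 155 to 190 CPM, and without Cd74 to 73.9 to 196 and 108 to 151 CPM. Of the 11 tested, 6 were above 0 and 5 below, with Itgam called higher and Cd74 lower. The part of these cells in the values of the glycolytic and pentose phosphate genes was not tested.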

How the data were processed

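The data are bulk RNAseq of 3 WT and 3 SIRPa KO libraries. Reads were handled by the authors in Partek and aligned with STAR (mm10, GENCODE M21), and the deposited values are estimated counts of reads on each gene, without scaling for library size. The submitters' processing notes name Partek 10.0 and STAR 2.7.8. Counting rules for strand and for shared reads are not given in the sources used here. The deposited table has no gene with a total under 10 reads.

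Counts were rounded, filtered by filterByExpr (minimum count 10, total 15), scaled by TMM and tested with edgeR's quasi-likelihood test on genotype alone, adjusted by Benjamini-Hochberg over 13623 genes (R 4.3.3, edgeR 4.0.16, DESeq2 1.42.0). An SE was taken from the F statistic. Symbols matched GENCODE for 17400 genes directly and 220 through synonyms, and 211 were not matched. Length and GC content are those of the longest CCDS transcript, or of the longest coding transcript where none is tagged. For the correction, a spline in each property (5 degrees of freedom) was fitted per library over 9032 genes outside the lists and used as an offset. Near-identical copies had 95% identity over 50% of a transcript. The fits were also run on simulated counts that had the same spread in both groups, whereas the spread of the data differed between them. The outcome is not given here and no result rests on it.

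All 32 genes are named. Every library's value is given for called genes, for the most abundant gene per kilobase of each step and for its largest change, and in places for others. Of the related genes, the called ones with the 5 largest rises and 5 largest falls and fixed HIF axis genes are named, and the rest of the called ones are listed to complete a count. Mif, Cul2 and Eloc were named after their values were seen. The genes and lists were chosen with earlier results of these data known. Alternatives were DESeq2, other scalings, no filter, a replicate block, summed codes, thinning and each library left out. One of the marker genes is not reported here.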

Additional observations from a re-analysis of the deposited data

How the results depend on the processing

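Over 14 alternatives, 390 of 448 log2 fold changes of single genes kept their direction and side of the threshold, 21 newly passed it, 22 lost it and 15 changed sign. The number of the 32 genes called, 4, became 9 with DESeq2 (26.9% of the genes to which it gave an adjusted p were called) and 0 with libraries of a shared code summed. It ranged from 0 to 9 with each library left out, 0 without any 1 SIRPa KO library and 8 and 9 without WT replicate 2 and 3. Among all genes the count, 1600, became 3214 with DESeq2, 10 with codes summed, and 16 to 2606 with a library left out, 2606 of them without WT replicate 3. Related genes called, 13, became 29 with DESeq2, 0 with codes summed, 7 without the filter and 5 with the replicate block, and 0 to 22 with a library left out. The cause of these shifts was not tested. The set's median, -0.036, was -0.14 with upper quartile factors (all genes -0.13, so -0.012 relative to them), 0.014 with the length and GC correction, and -0.027 to 0.0025 with a library left out. The replicate block called 3 of the 32 (Eno1, Slc16a1 and Hif1a), where same-numbered libraries correlated at -0.042, 0.052 and 0.0075, so the numbers did not pair the libraries. Sign changes with the correction were Hk1 (-0.0026), Gapdh (0.11), Pkm (0.075), Slc16a3 (-0.015), Pgls (0.55) and Taldo1 (0.026), and with upper quartile factors Pgd (-0.059). Tkt changed sign with DESeq2 (0.0071) and without the filter (0.006). With a library left out, Hk1 ranged from -0.045 to 0.20, Pfkm from -0.21 to 0.0059, Aldoc from -0.21 to 0.26 and Tkt from -0.041 to 0.022. Pfkfb2, Pfkfb4, Eno3 and Rpia had the fewest reads of the set.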
